A study of Mus musculus with 9 samples.

Results

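Proteoglycans are proteins that carry long sulfated sugar chains, and the 10 genes described here encode 8 of their core proteins and 2 growth factors that bind those chains. The genes are Bgn, Dcn, Prelp, Vcan, Hspg2, Sdc1, Sdc4, Gpc1, Ptn and Mdk. They were taken by gene symbol from a count table of 54134 distinct entries, in which all 10 were found, and all 10 passed the filter on low counts that left 13810 genes for testing. They were chosen by their levels and fold changes in these same libraries, across all 3 comparisons. For that reason the changes of these 10 genes are given as descriptions, with a fold change and its standard error but no p-value, and they support no further statement. Dcn and Prelp passed the filter through their control and Hb levels. Mdk passed it only with its Hb and Hb+NTR1 libraries, of which 2 and 1 reached the level needed.

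RNA was sequenced after poly(A) selection in 3 groups of 3 libraries of cultured HT22 cells, which derive from mouse hippocampal neurons, with wild type given as the genotype. The cell type field of the same samples reads HT-4, which is not explained there. The control group had no intervention. Cells of the Hb group were treated with oxyhemoglobin, the oxygen-carrying pigment that leaves red cells after a bleed. Cells of the Hb+NTR1 group were treated with oxyhemoglobin and with an agent that the sample labels call NTR1 and the series title calls NGR1. No group had the agent without oxyhemoglobin, and the sources used here give neither dose nor time. All groups were grown in the same medium with serum, and the whole series is 1 cell line. Nothing in the labels ties a library to its own culture, so p-values measure the spread between libraries, which may be technical.

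The sugar chains are built on serine residues of the core protein and are of 2 main kinds, heparan sulfate and chondroitin or dermatan sulfate. Matrix proteoglycans bind collagen, hyaluronan or basement membrane proteins and give a tissue its water content and its stiffness. Cell surface proteoglycans, the syndecans and glypicans, hold growth factors such as FGFs, pleiotrophin and midkine close to their signalling receptors. In the brain these molecules form part of the extracellular matrix around neurons, and chondroitin sulfate is known there for limiting the growth of axons.

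Total counts ran from 13415648 to 16893746 per library. Levels are given as CPM, which are counts scaled to the size of the library. Where a gene has no count, up to 3 counts remain possible, or 0.181 to 0.223 CPM, and this floor covers counting error only. Hb replicate 2 lay farther from its group mean than any other library, at a root mean square deviation of 0.246 log2 units against 0.183 to 0.226 for the rest. Markers of the labelled cell type were largely missing, since 8 of 11 neuronal markers lay under 1 CPM in control and Map2, Snap25 and Gad1 had no count in any library. The sum of the 11 ran from 124 to 130.1 CPM in control, 129 to 135.5 CPM in Hb and 57.4 to 60.5 CPM in Hb+NTR1. Nearly all of it was Dlg4, Tubb3 and Syn1, at 70.2 ± 3.45, 32.6 ± 1.46 and 24.7 ± 1.24 CPM in control. Fibroblast markers were abundant, with 2 of 8, Lum and Fap, under 1 CPM in control. Their sum, nearly all of it Col1a2, Col1a1 and Col3a1, was lower along with most of the genes described here. It ran from 13990 to 14910 CPM in control, 11270 to 12720 CPM in Hb and 1299 to 1402 CPM in Hb+NTR1. Within it Col3a1 had 1547 ± 82.9 CPM in control and 1771 ± 40.1 CPM in Hb. Pdgfra had 78.8 ± 9.73 CPM in Hb and 64.95 ± 3.68 CPM in Hb+NTR1, a small change beside that of the sum. Of the fibroblast markers 3 of the 6 tested were lower in Hb than in control (edgeR adjusted p under 0.05), beside 1.77% of all genes tested. In Hb+NTR1 against Hb 6 of 6 were lower, beside 31.6% of all genes. So were 3 of 3 tested neuronal markers, 2 of 2 astrocyte markers and the 1 tested oligodendrocyte and 1 tested epithelial marker. The 1 tested endothelial marker was higher. The sum of 5 astrocyte markers, nearly all of it Slc1a3, ran from 199 to 229 CPM in control, 115 to 138 CPM in Hb and 8.08 to 9.27 CPM in Hb+NTR1. Aqp4 of that list had no count in any library. The part of such markers in the changes below was not tested. In RNA from whole cultures, fewer cells of a type and less RNA per cell cannot be told apart.

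All 5 matrix proteoglycan genes and Ptn were lower in Hb+NTR1 than in both other groups, and the cell surface genes went separate ways. Bgn, Prelp, Vcan and Ptn were lower in Hb than in control and lower again in Hb+NTR1. Dcn, Hspg2 and Sdc1 lay close to control in Hb, and were lower in Hb+NTR1. Sdc4 was lowest in Hb and highest in Hb+NTR1, whereas Gpc1 was highest in Hb. Mdk was close to the limit of detection throughout.

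**Figure D1:**
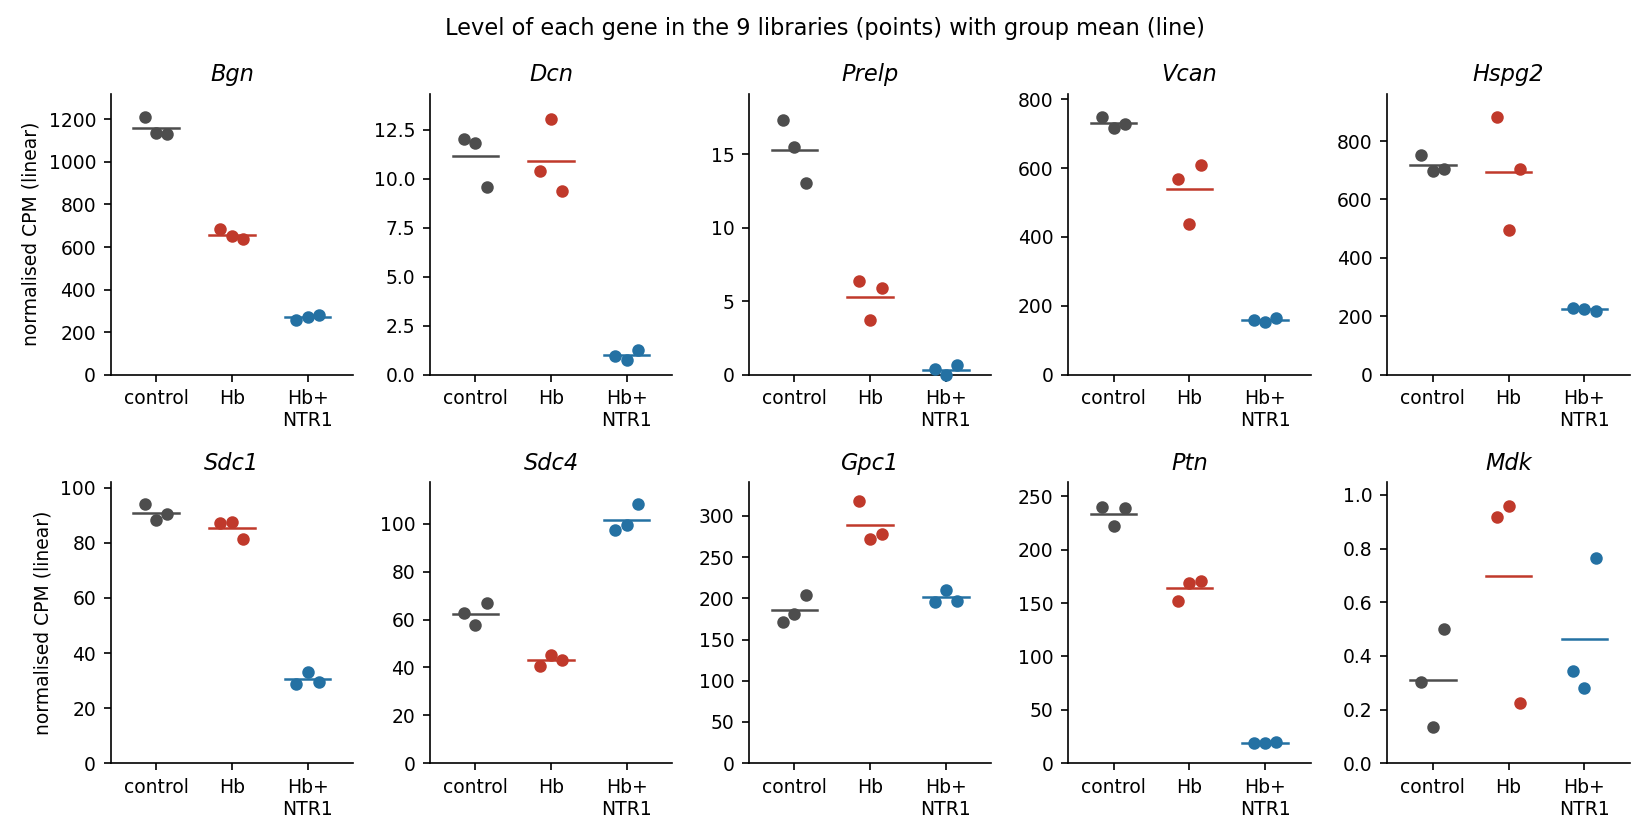
Normalised CPM (linear axis, from 0) of each of the 10 genes in every library, with 3 points and a mean line per group. Bgn, Vcan, Prelp and Ptn step down from control to Hb to Hb+NTR1, Sdc4 is highest in Hb+NTR1 and Gpc1 in Hb.

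Levels can be set against each other between genes only per length, and were divided here by the union of annotated exons in GENCODE M21, from 1.32 kb for Mdk to 14.5 kb for Vcan. This takes no account of which transcripts were made. In control, Bgn led at 190 ± 7.41 CPM per kb (SD, n = 3), followed by Ptn at 68.1 ± 2.86, Vcan at 50.6 ± 1.08 and Hspg2 at 50.2 ± 2.08 CPM per kb. Vcan and Hspg2 overlapped and cannot be ordered. Gpc1 came next at 35.9 ± 3.23, then Sdc4 at 24.5 ± 1.79 and Sdc1 at 23.9 ± 0.739 CPM per kb, and this syndecan pair also overlapped. Prelp at 4.23 ± 0.598, Dcn at 1.91 ± 0.233 and Mdk at 0.236 ± 0.139 CPM per kb closed the list, each apart from the next.

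In Hb+NTR1 the order was different. Bgn at 44.4 ± 1.84, Sdc4 at 40.0 ± 2.32 and Gpc1 at 39.0 ± 1.53 CPM per kb lay together at the top, with libraries of neighbouring genes overlapping. Hspg2 at 15.6 ± 0.371 and Vcan at 11.1 ± 0.412 CPM per kb followed, and Ptn had gone from the second place to the seventh, at 5.57 ± 0.160 CPM per kb. Summed over the 8 core proteins, the level was 381 ± 10.2 CPM per kb for control, 292 ± 24.7 for Hb and 158 ± 4.37 for Hb+NTR1. The cell surface genes Sdc1, Sdc4 and Gpc1 made up 22.1% ± 1.33 of that sum for control, 32.7% ± 1.83 for Hb and 54.9% ± 0.444 for Hb+NTR1 (SD over 3 libraries). This share rose while the sum fell, so it is not by itself a gain in cell surface RNA. From control to Hb+NTR1, Bgn fell from 190 to 44.4 CPM per kb. Sdc4 went from 24.5 to 40.0, Gpc1 from 35.9 to 39.0 and Sdc1 from 23.9 to 7.998 CPM per kb.

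**Figure D2:**
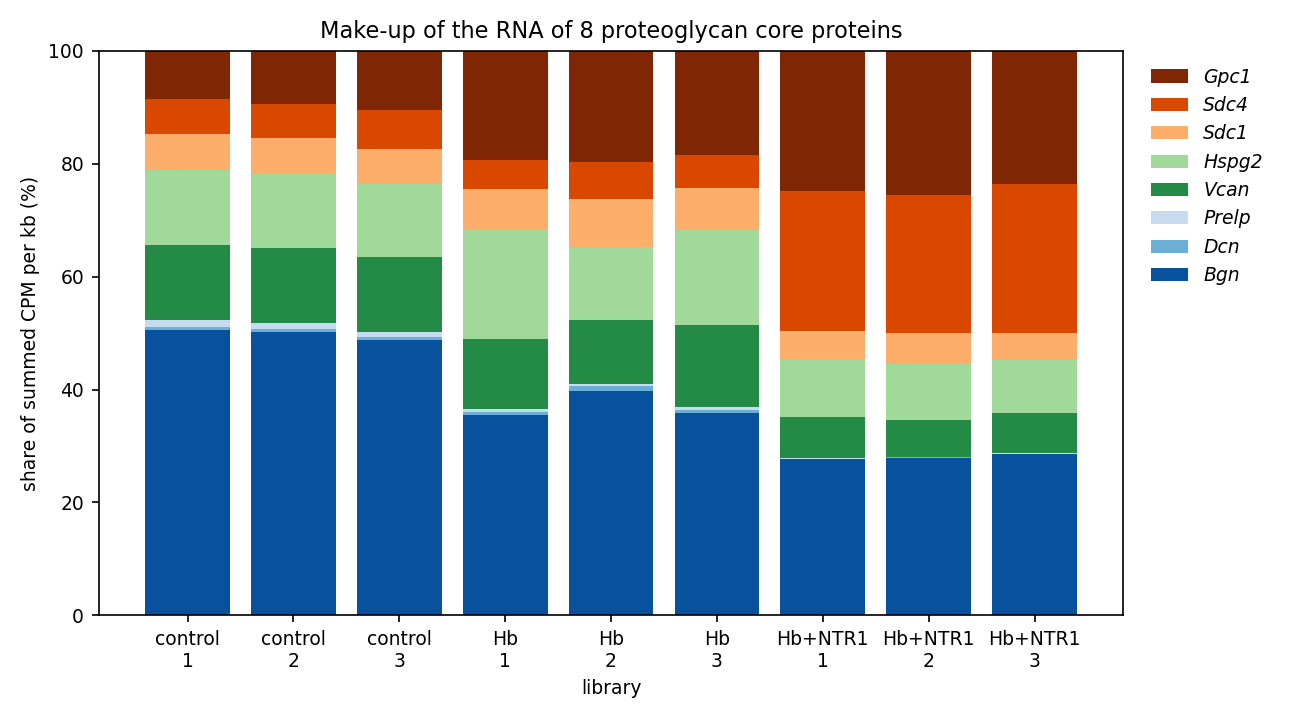
Share of each core protein gene in the summed CPM per kb of the 8 core proteins (%, stacked to 100), 1 bar per library. Bgn takes 48.8% to 50.6% in control and 27.7% to 28.5% in Hb+NTR1, where Sdc4 takes 24.5% to 26.3%.

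The RefSeq table of promoters on GRCm38.p6 held 7 of the 10 genes, all but Dcn, Gpc1 and Mdk. Shown is the stretch before the transcription start, without bases that GENCODE M21 places in an exon of the gene, for 4 genes that went different ways. It is 237 bases for Prelp, 209 for Ptn, 177 for Sdc1 and 250 for Sdc4, where 1 non-coding GENCODE transcript of Sdc4 starts farther upstream. Prelp and Ptn were much lower in Hb+NTR1 than in Hb, while the syndecan genes Sdc1 and Sdc4 went in opposite directions. The stretches are chr1:133921415-133921651 for Prelp (minus strand), chr6:36810221-36810429 for Ptn (minus strand), chr12:8771146-8771322 for Sdc1 (plus strand) and chr2:164443189-164443438 for Sdc4 (minus strand), each written 5′ to 3′ along the gene. Capitals mark the letters GGGCGG or their reverse complement.
Prelp: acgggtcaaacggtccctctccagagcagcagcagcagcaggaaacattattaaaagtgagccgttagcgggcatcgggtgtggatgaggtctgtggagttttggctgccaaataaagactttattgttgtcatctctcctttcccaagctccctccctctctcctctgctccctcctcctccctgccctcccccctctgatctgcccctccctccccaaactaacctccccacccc
Ptn: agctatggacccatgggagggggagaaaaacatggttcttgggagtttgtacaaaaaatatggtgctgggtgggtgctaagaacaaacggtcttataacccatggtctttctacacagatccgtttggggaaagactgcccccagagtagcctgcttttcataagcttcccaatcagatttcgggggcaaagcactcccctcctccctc
Sdc1: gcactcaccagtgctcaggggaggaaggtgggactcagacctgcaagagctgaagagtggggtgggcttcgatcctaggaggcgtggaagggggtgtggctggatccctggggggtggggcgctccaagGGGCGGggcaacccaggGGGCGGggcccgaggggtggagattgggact
Sdc4: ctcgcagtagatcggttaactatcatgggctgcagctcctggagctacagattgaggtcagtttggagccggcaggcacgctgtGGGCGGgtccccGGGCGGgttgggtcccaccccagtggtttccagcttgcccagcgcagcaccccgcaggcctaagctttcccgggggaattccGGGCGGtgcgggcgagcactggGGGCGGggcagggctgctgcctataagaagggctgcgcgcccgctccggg

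The whole 300-base windows, which run 50 bases past the start, were searched on both strands for 6 motifs. Of all 32851 windows, 7.81% hold the letters of an AP-1 site, TGANTCA. The letters of an antioxidant response element, TGACNNNGC, are in 12.4% of windows, and a TGANTCA match can lie whole inside them. Those of a TEAD site, GGAATG, are in 14.7% of windows. The E-box letters CACGTG are in 7.15% of windows and the GC-box letters GGGCGG in 35.7% of them. The TATA-box letters TATAAA are in 13.6% of windows. GGGCGG was found 3 times for Sdc1, 2 of them in the stretch shown, and 4 times for Sdc4, and at no position for Prelp or Ptn. It was also found 3 times for Bgn, 5 times for Hspg2 and 2 times for Vcan. The windows with it were richer in G and C, at 66.3% for Sdc1 and 67.7% for Sdc4 against 55.3% for Prelp and 52.0% for Ptn, where the median window held 52.7%. Of the other motifs, TGACNNNGC occurred once, in the Vcan window 30 bases after the start. A match is a string of letters only, and none of these counts says anything about a factor that binds there.

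Bgn, Dcn and Prelp encode small leucine-rich proteoglycans, which bind collagen fibrils. Bgn (ENSMUSG00000031375.17, chrX:73483602-73495933 on the plus strand, GRCm38) encodes biglycan. Its level was 1211, 1137 and 1129 CPM in control, 686, 649.6 and 637 CPM in Hb, and 259, 272 and 281 CPM in Hb+NTR1. No library of 1 group overlapped with another. The log2 fold change was -0.82 ± 0.062 for Hb against control and -1.28 ± 0.063 for Hb+NTR1 against Hb, so the level in Hb+NTR1 was 4.28-fold under control.

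Prelp (ENSMUSG00000041577.5, chr1:133910304-133921414 on the minus strand), whose protein anchors basement membranes to the collagen below them, had the largest fold change of the 10 genes in Hb against control. It had 17.3, 15.5 and 13.0 CPM in control and 6.36, 3.69 and 5.86 CPM in Hb. In Hb+NTR1 it had 6, 0 and 9 counts, or 0.411, 0 and 0.627 CPM, and the 0 allows up to 0.211 CPM. The groups did not overlap, and the log2 fold change was -1.53 ± 0.211 for Hb against control and -3.90 ± 0.392 for Hb+NTR1 against Hb. The second value rests on 15 counts in 3 libraries and ran from -4.61 to -3.33 as single libraries were left out. Its exons share 350 bases with Gm15851 on the other strand, which had at most 1 count.

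Dcn (ENSMUSG00000019929.16, chr10:97479609-97518143 on the plus strand) encodes decorin, the nearest relative of biglycan among these genes and a binder of TGF-beta. It was 12.04, 11.84 and 9.595 CPM in control and 10.4, 13.0 and 9.35 CPM in Hb, with full overlap. In Hb+NTR1 it was 0.960, 0.773 and 1.253 CPM, or 11 to 18 counts per library, under every other library. The log2 fold change was -0.031 ± 0.153 for Hb against control and -3.45 ± 0.223 for Hb+NTR1 against Hb. In Hb, Bgn was thus 1.76-fold under control while Dcn overlapped with it, and the difference between the 2 genes was not tested.

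Vcan (ENSMUSG00000021614.16, chr13:89655312-89742509 on the minus strand) encodes versican, a large chondroitin sulfate proteoglycan that binds hyaluronan. Control libraries had 748, 718 and 727 CPM, Hb libraries 568, 439 and 609.9 CPM and Hb+NTR1 libraries 159.5, 154 and 166 CPM. The groups were apart, with Hb replicate 2 the lowest Hb library. The log2 fold change was -0.44 ± 0.083 for Hb against control, or -0.31 without Hb replicate 2, and -1.75 ± 0.087 for Hb+NTR1 against Hb.

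Hspg2 (ENSMUSG00000028763.17, chr4:137468769-137570630 on the plus strand) encodes perlecan, the large heparan sulfate proteoglycan of basement membranes. It had 753, 698.5 and 704 CPM in control, 884, 495 and 704 CPM in Hb and 227, 226 and 218 CPM in Hb+NTR1. The Hb libraries lay on both sides of control and the Hb+NTR1 libraries under all others. For Hb against control the log2 fold change was -0.050 ± 0.161, and it turned to 0.14 ± 0.065 without Hb replicate 2. For Hb+NTR1 against Hb it was -1.63 ± 0.167.

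**Figure D3:**
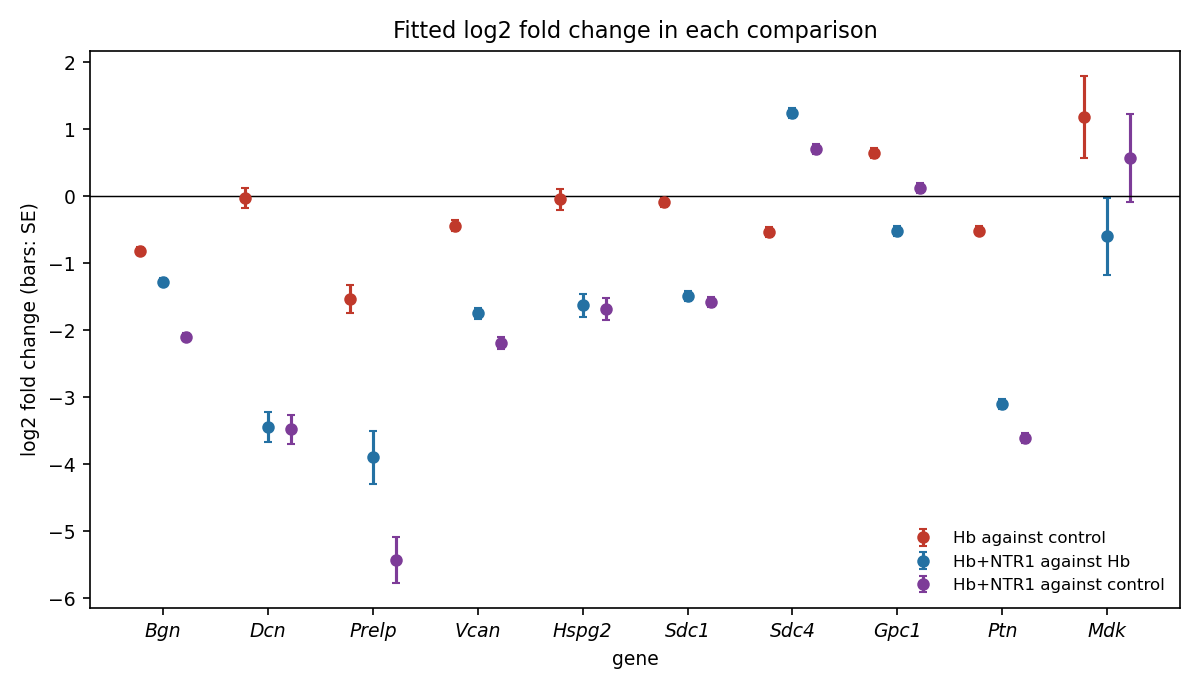
Fitted log2 fold change (points) with its standard error (bars) for each of the 10 genes in 3 comparisons, of which each pair shares 1 group of libraries. Sdc4 lies under 0 for Hb against control and above 0 for Hb+NTR1 against Hb, and Gpc1 the other way round.

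Sdc1 and Sdc4 encode syndecans, transmembrane heparan sulfate proteoglycans that act as co-receptors for growth factors and matrix. Sdc1 (ENSMUSG00000020592.14, chr12:8771323-8793715 on the plus strand) had 94.0, 88.4 and 90.4 CPM in control, 87.4, 87.7 and 81.5 CPM in Hb and 28.6, 33.1 and 29.7 CPM in Hb+NTR1. The Hb libraries lay just under control, at a log2 fold change of -0.088 ± 0.071, which did not pass the threshold, and the Hb+NTR1 libraries were far under both, at -1.49 ± 0.077 against Hb. Sdc4 (ENSMUSG00000017009.3, chr2:164424247-164443887 on the minus strand), the syndecan of focal adhesions, had 62.6, 57.8 and 66.9 CPM in control, 40.6, 45.04 and 43.2 CPM in Hb and 97.3, 99.6 and 108.5 CPM in Hb+NTR1. The 3 groups were apart, with Hb the lowest. The log2 fold change was -0.54 ± 0.078 for Hb against control, 1.24 ± 0.077 for Hb+NTR1 against Hb and 0.71 ± 0.075 for Hb+NTR1 against control. Sdc4 was the 1 gene of the 10 above control in Hb+NTR1 with no overlap of libraries.

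Per kb, Sdc4 and Sdc1 stood at a ratio of 1.03 ± 0.0697 for control, 0.752 ± 0.0503 for Hb and 5.02 ± 0.487 for Hb+NTR1 (SD over 3 libraries). Each ratio is taken within a library and does not depend on how libraries are scaled. The ranges of the 3 groups, 0.977 to 1.11, 0.695 to 0.792 and 4.50 to 5.47, were apart.

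Gpc1 (ENSMUSG00000034220.7, chr1:92831645-92860779 on the plus strand) encodes glypican 1, a heparan sulfate proteoglycan held in the membrane by a lipid anchor. It had 172, 180.5 and 204 CPM in control, 318, 272 and 278 CPM in Hb and 196, 210.3 and 197 CPM in Hb+NTR1. Hb stood above both other groups, and control and Hb+NTR1 overlapped. The log2 fold change was 0.64 ± 0.072 for Hb against control, -0.52 ± 0.072 for Hb+NTR1 against Hb and 0.12 ± 0.072 for Hb+NTR1 against control. The last of these did not pass the threshold, but did so without control replicate 3, at 0.195. Its exons share 977 bases with Ankmy1 on the other strand, which had at most 3 counts.

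**Figure D4:**
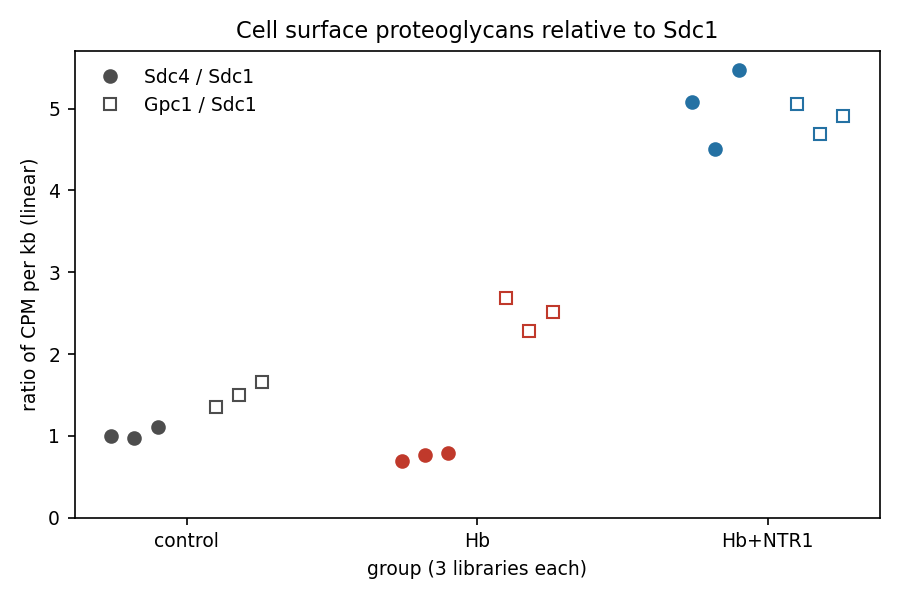
Ratio of Sdc4 to Sdc1 (filled circles) and of Gpc1 to Sdc1 (open squares) in CPM per kb (linear axis from 0), 1 point per library. Both ratios are highest in Hb+NTR1, where Sdc4 to Sdc1 is 4.50 to 5.47, against 0.977 to 1.11 in control.

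Ptn and Mdk encode pleiotrophin and midkine, the 2 members of a family of small basic growth factors that bind heparan and chondroitin sulfate. Ptn (ENSMUSG00000029838.11, chr6:36714929-36810220 on the minus strand) had 239.9, 222 and 239 CPM in control, 152, 169 and 171 CPM in Hb and 19.1, 18.6 and 19.7 CPM in Hb+NTR1. The groups did not overlap. The log2 fold change was -0.51 ± 0.064 for Hb against control and -3.10 ± 0.076 for Hb+NTR1 against Hb, which puts Hb+NTR1 12.2-fold under control. Mdk (ENSMUSG00000027239.14, chr2:91929805-91932297 on the minus strand) had 2 to 7 counts per control library, 3 to 14 per Hb library and 4 to 11 per Hb+NTR1 library. At under 1 CPM in each library the groups overlapped in all 3 comparisons. No difference of Mdk was detectable at this depth, with a log2 fold change of 1.18 ± 0.612 for Hb against control. It passed the filter only with its Hb and Hb+NTR1 libraries, which favours higher values there than in control.

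In Hb against control, 6 of the 10 genes passed an adjusted p of 0.05 by edgeR, 5 lower and 1 higher, beside 3.65% of all genes tested (1.77% lower and 1.88% higher; with library totals alone, 65.8% of those calls were higher, against 51.4%). The 6 were Bgn, Prelp, Vcan, Sdc4 and Ptn, lower, and Gpc1, higher. In Hb+NTR1 against Hb, 8 were lower and 1 higher, beside 62.3% of all genes tested (31.6% lower and 30.7% higher). In Hb+NTR1 against control, 7 were lower and 1 higher, beside 63.6% (32.2% lower and 31.4% higher). Libraries of Hb and control did not overlap for 7 of the 10, 6 below and 1 above, beside 19.6% of all genes (10.0% and 9.51%). Those of Hb+NTR1 and Hb did not overlap for 9, 8 below and 1 above, beside 64.7% (32.3% and 32.4%). Those of Hb+NTR1 and control did not overlap for 8, 7 below and 1 above, beside 69.9% (35.1% and 34.8%). The median log2 fold change of the 10 was -0.26, -1.56 and -1.89, where that of all genes was 0, -0.011 and -0.0042. The genes were chosen with such values known, so nothing is read from these counts. The comparisons share libraries and are not independent of each other. In the authors' deposited table of Hb+NTR1 against control, 5 of the 10 genes are listed, with log2 fold changes of -2.10 for Bgn, -2.193 for Vcan, -3.49 for Dcn, -3.61 for Ptn and -5.46 for Prelp.

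The gene whose pattern over the 9 libraries was nearest to that of Prelp, which had the largest fold change of the 10 in both Hb against control and Hb+NTR1 against Hb, was Gm37310, a gene model on chromosome 15 that the annotation marks as still to be checked by experiment. Likeness was the root mean square difference of log2 CPM after centring each gene, with 0.5 CPM added, over 10565 genes with at least 5 CPM in some group. The added value is above the mean of Prelp in Hb+NTR1, 0.346 CPM, so the distances depend on it. It was 0.416 for Gm37310, 0.460 for Ogn, a further leucine-rich proteoglycan, and 0.521 for Timp3, an inhibitor of matrix metalloproteases. Timp3 went from 236 ± 6.36 CPM in control to 162 ± 16.2 CPM in Hb and 11.9 ± 0.750 CPM in Hb+NTR1. Gm37310 lies inside the bounds of Slc1a3 on the same strand, and whether its counts come from Slc1a3 transcripts was not tested. Slc1a3 had 211 ± 14.5 CPM in control, 123 ± 12.3 CPM in Hb and 7.07 ± 0.477 CPM in Hb+NTR1.

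To set these genes beside the rest of their pathway, 142 further genes were sorted by function into 9 lists, of which 81 were abundant enough to test. The lists were drawn up with earlier results of these data known, so no excess over all genes is read from the counts that follow. In Hb against control 1 of the 81 rose and 10 fell, or 13.6% beside 3.65% of all genes tested, and the count was 7 without control replicate 2 or control replicate 3. In Hb+NTR1 against Hb, 35 rose and 37 fell, or 88.9% beside 62.3%. Of the 35, 5 passed the filter only with their Hb+NTR1 libraries (Nyx, Ecm2, Spock2, Areg and Itgb3), which favours that direction, while 0 of the 37 depended on 1 group. In Hb+NTR1 against control, 34 rose and 39 fell, or 90.1% beside 63.6%, and the same 5 genes are among the 34, with the same limit. The median log2 fold change of the 81 was -0.035, -0.15 and -0.11 in the 3 comparisons. The adjusted p-values of these genes come from the same edgeR fit and are adjusted by Benjamini and Hochberg over the 13810 genes. Each of the 11 is named below, and 6 of them passed in all 16 alternatives to the fit. The counts per list below are to be set beside the shares of all genes tested. In Hb against control these were 1.88% higher and 1.77% lower. In Hb+NTR1 against Hb they were 30.7% higher and 31.6% lower.

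**Figure D5:**
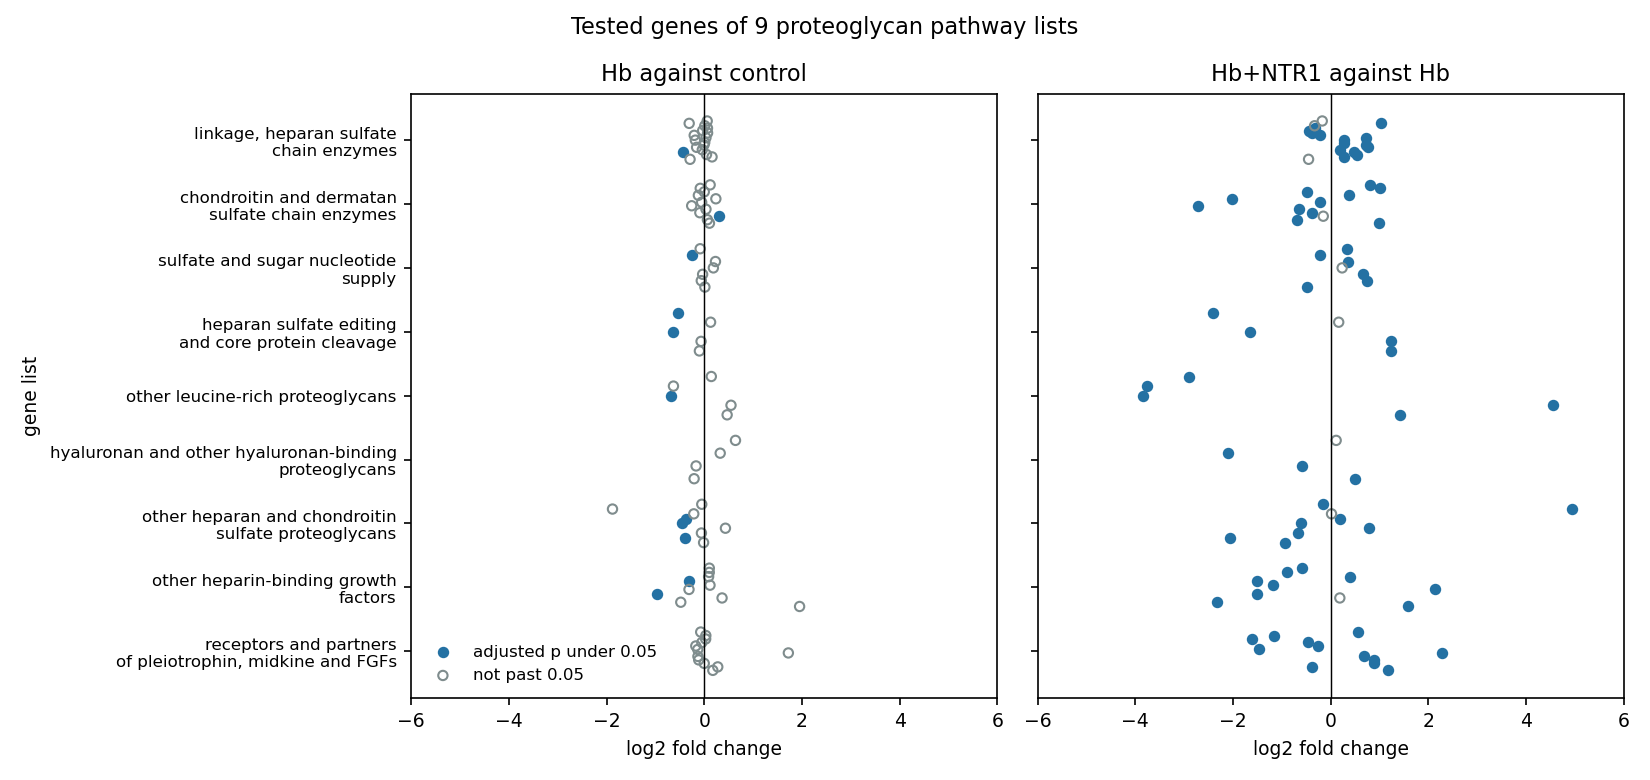
Log2 fold change of the 81 tested genes of 9 pathway lists (1 row of points per list) for Hb against control and for Hb+NTR1 against Hb, filled where the adjusted p was under 0.05. On the left 11 genes pass, 1 of them higher, and on the right 72 pass, 35 of them higher.

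Other leucine-rich proteoglycans were sparse, and 5 of 12 were tested. Between control and Hb, 1 of them fell, 0 rose and 4 did not pass. That gene, Ogn, which encodes osteoglycin, fell from 27.7 ± 2.75 to 17.2 ± 2.89 CPM (edgeR adjusted p = 0.00109 at a log2 fold change of -0.69 ± 0.121). Between Hb and Hb+NTR1, 3 fell and 2 rose, and both that rose, Nyx and Ecm2, passed the filter only with their Hb+NTR1 libraries, which favours that direction. Ogn fell further, to 1.18 ± 0.205 CPM (edgeR adjusted p = 2.62e-14 at a log2 fold change of -3.85 ± 0.192), and Podnl1 fell from 25.3 ± 2.31 to 3.40 ± 0.375 CPM. Nyx, which encodes the retinal protein nyctalopin, rose from 0.258 ± 0.215 CPM, or 1 to 7 counts per Hb library, to 6.27 ± 0.372 CPM.

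Among the other heparan and chondroitin sulfate core proteins, 9 of 19 were tested. In Hb against control 3 fell, 0 rose and 6 did not pass. Nrp1, a co-receptor for VEGF and semaphorins, fell from 79.0 ± 3.10 to 61.2 ± 1.81 CPM (edgeR adjusted p = 0.00187 at a log2 fold change of -0.37 ± 0.069). Col18a1, the collagen of basement membranes that carries heparan sulfate, fell from 58.8 ± 1.28 to 45.02 ± 5.203 CPM, and missed the threshold without control replicate 3 (edgeR adjusted p = 0.0690). Gpc6 fell from 18.7 ± 1.46 to 13.6 ± 1.74 CPM, but missed without control replicate 2 or 3 or Hb replicate 2 (edgeR adjusted p = 0.0801, 0.167 and 0.0761). It also missed when just the 6 libraries of control and Hb were fitted (edgeR adjusted p = 0.0559). In Hb+NTR1 against Hb, 5 fell and 3 rose. Of those that rose, Spock2 passed the filter only with its Hb+NTR1 libraries, which favours that direction. Col18a1 fell to 10.8 ± 1.04 CPM (edgeR adjusted p = 3.52e-14 at a log2 fold change of -2.06 ± 0.104), Agrn, which encodes agrin, from 141 ± 22.3 to 73.6 ± 3.47 CPM and Cspg4, a transmembrane chondroitin sulfate proteoglycan, from 184.5 ± 30.0 to 115.5 ± 6.40 CPM. Nrp1 rose to 70.3 ± 1.71 CPM, and missed the threshold without Hb+NTR1 replicate 3 and with no filter on low counts (edgeR adjusted p = 0.0632 and 0.0655).

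The syndecan and glypican families were each expressed in part. Beside Sdc1 and Sdc4, Sdc2, named here after its values were seen, had 167 to 181 CPM per control library, 139 to 155 per Hb library and 148 to 154 per Hb+NTR1 library. It did not pass in Hb against control (edgeR adjusted p = 0.0555) or in Hb+NTR1 against Hb (edgeR adjusted p = 0.822), and was lower in Hb+NTR1 than in control (edgeR adjusted p = 0.00838 at a log2 fold change of -0.20 ± 0.063). Sdc3 stayed under the filter, at 0.0222 CPM in control. Of the other glypicans Gpc6 was tested, and Gpc2, Gpc4 and Gpc5 had no count in any library.

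Genes for hyaluronan and its binding proteins gave 4 tested of 11. Between control and Hb, 0 rose, 0 fell and 4 did not pass. Between Hb and Hb+NTR1, 2 fell and 1 rose. The hyaluronan receptor gene Cd44 rose from 139 ± 2.70 to 197 ± 15.2 CPM (edgeR adjusted p = 4.07e-07 at a log2 fold change of 0.50 ± 0.065), the hyaluronan synthase gene Has1 fell from 6.209 ± 2.595 to 1.44 ± 0.279 CPM and the link protein gene Hapln4 fell from 8.35 ± 1.85 to 5.54 ± 0.312 CPM. The brain proteoglycan genes Bcan and Ncan, which are relatives of Vcan, and the cartilage gene Acan stayed under the filter and had a mean of 0 CPM in control.

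Enzymes that make the linkage region and heparan sulfate had 17 tested of 28. In Hb against control 1 fell, 0 rose and 16 did not pass. The gene that fell was Ext1, a subunit of the heparan sulfate polymerase, from 82.7 ± 2.84 to 61.4 ± 4.74 CPM (edgeR adjusted p = 0.000561 at a log2 fold change of -0.43 ± 0.071). Ext1 rose again in Hb+NTR1, to 86.0 ± 1.45 CPM (edgeR adjusted p = 2.61e-06 against Hb), and did not pass against control (edgeR adjusted p = 0.491). Between Hb and Hb+NTR1, 10 rose and 4 fell. Hs2st1, the 2-O-sulfotransferase, rose from 134 ± 6.10 to 221 ± 6.32 CPM (edgeR adjusted p = 9.14e-10 at a log2 fold change of 0.72 ± 0.064). Extl3 rose from 36.4 ± 3.45 to 59.8 ± 1.46 CPM, Extl2 from 27.7 ± 4.27 to 47.4 ± 0.619 CPM and Pxylp1 from 2.51 ± 0.154 to 5.14 ± 0.618 CPM. The N-sulfating enzyme gene Ndst1 fell from 115 ± 12.8 to 84.9 ± 0.398 CPM (edgeR adjusted p = 1.50e-05 at a log2 fold change of -0.44 ± 0.073), as did Hs6st2, from 45.8 ± 2.57 to 35.1 ± 2.40 CPM. Xylt1, 1 of the 2 genes for the xylosyltransferase that starts every chain, had no count in any library, while Xylt2 had 36.7 to 44.3 CPM over the 9 libraries. None of the 7 Hs3st genes for 3-O-sulfotransferases passed the filter.

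Enzymes of chondroitin and dermatan sulfate had 12 tested of 16. Between control and Hb, 1 rose, 0 fell and 11 did not pass. The gene was Chst11, a 4-O-sulfotransferase, which went from 69.6 ± 5.10 to 86.1 ± 10.1 CPM (edgeR adjusted p = 0.0414). It missed the threshold without any of control replicates 1, 2 and 3, Hb replicates 1 and 3 and Hb+NTR1 replicates 2 and 3, and with only the 6 libraries compared, at edgeR adjusted p-values from 0.0557 to 0.240. Between Hb and Hb+NTR1, 4 rose and 7 fell. Csgalnact1, which starts chondroitin chains, fell from 30.2 ± 2.83 to 7.43 ± 1.24 CPM (edgeR adjusted p = 1.15e-12 at a log2 fold change of -2.02 ± 0.124). Chpf, a chain-polymerizing factor, rose from 62.2 ± 11.5 to 122.8 ± 6.58 CPM at a log2 fold change of 0.98 ± 0.100. The epimerases that turn chondroitin into dermatan sulfate moved apart, with Dsel rising from 42.2 ± 2.89 to 84.6 ± 2.17 CPM and Dse falling from 85.8 ± 2.38 to 61.8 ± 0.778 CPM.

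Genes that supply sulfate and sugar nucleotides had 7 tested of 8. In Hb against control 1 fell, 0 rose and 6 did not pass. Ugdh, which makes UDP-glucuronic acid, fell from 231 ± 3.36 to 193 ± 7.64 CPM (edgeR adjusted p = 0.0127), and missed the threshold without control replicate 1, 2 or 3 (edgeR adjusted p = 0.0605, 0.0533 and 0.0830). Between Hb and Hb+NTR1, 4 rose and 2 fell. The sulfate transporter gene Slc26a2 rose from 40.7 ± 4.53 to 68.0 ± 1.59 CPM (edgeR adjusted p = 4.78e-08), and Papss1, which makes the sulfate donor, fell from 143.9 ± 2.31 to 102.9 ± 3.35 CPM (edgeR adjusted p = 3.08e-07).

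Genes for enzymes that edit chains or cut core proteins had 5 tested of 12. Between control and Hb, 2 fell, 0 rose and 3 did not pass. Adamts1 and Adamts5 encode secreted proteases that cut versican. Adamts1 had 289, 259 and 263 CPM in control, 176, 163 and 182 CPM in Hb and 54.8, 56.3 and 53.9 CPM in Hb+NTR1. Adamts5 had 514, 461 and 460.0 CPM in control, 326, 309 and 352 CPM in Hb and 62.1, 60.6 and 64.3 CPM in Hb+NTR1. Both fell in Hb against control (log2 fold changes -0.64 ± 0.064 and -0.54 ± 0.065, edgeR adjusted p = 8.04e-07 and 7.60e-06) and again in Hb+NTR1 against Hb (-1.66 ± 0.069 and -2.40 ± 0.071). Adam10 and Adam17, membrane proteases that can shed syndecans, rose in Hb+NTR1 against Hb. Adam10 went from 173 ± 11.9 to 404 ± 10.3 CPM (edgeR adjusted p = 4.22e-14 at a log2 fold change of 1.23 ± 0.063) and Adam17 from 84.4 ± 5.51 to 199.8 ± 7.62 CPM (edgeR adjusted p = 2.00e-13 at a log2 fold change of 1.24 ± 0.069). The sulfatase genes Sulf1 and Sulf2 and the heparanase gene Hpse stayed under the filter, with Sulf1 and Hpse at 0 CPM in control and Hb.

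Other heparin-binding growth factors had 10 tested of 17. In Hb against control 2 fell, 0 rose and 8 did not pass. Fgf7, keratinocyte growth factor, fell from 52.4 ± 3.32 to 26.8 ± 3.11 CPM (edgeR adjusted p = 1.48e-06 at a log2 fold change of -0.97 ± 0.101). Nrg1, neuregulin 1, fell from 53.9 ± 2.186 to 43.4 ± 0.610 CPM, and missed the threshold without control replicate 1 or 2 (edgeR adjusted p = 0.0958 and 0.102). Between Hb and Hb+NTR1, 6 fell and 3 rose. Of those that rose, Areg passed the filter only with its Hb+NTR1 libraries, which favours that direction. Fgf7 fell to 9.46 ± 1.45 CPM, Nrg1 to 15.2 ± 0.291 CPM and Hdgf from 628.5 ± 73.4 to 279 ± 1.48 CPM (edgeR adjusted p = 1.32e-10, 3.31e-13 and 8.40e-13). Hbegf, the heparin-binding ligand of the EGF receptor, rose from 6.79 ± 1.90 to 30.1 ± 1.84 CPM (edgeR adjusted p = 1.47e-11 at a log2 fold change of 2.14 ± 0.151).

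Receptors and partners of pleiotrophin, midkine and FGFs had 12 tested of 19. Between control and Hb, 0 rose, 0 fell and 12 did not pass. With NTR1 added to Hb, 6 rose and 6 fell. Of those that rose, Itgb3 passed the filter only with its Hb+NTR1 libraries, which favours that direction. The receptors best known for pleiotrophin, Ptprz1 and Alk, stayed under the filter. Ptprz1 had 0 CPM in control and Hb, and 9, 10 and 3 counts in Hb+NTR1, or 0.509 ± 0.264 CPM. This difference was not tested. Ptprs, a receptor phosphatase that binds heparan and chondroitin sulfate, fell from 368 ± 62.6 to 164 ± 7.47 CPM (edgeR adjusted p = 1.86e-10 at a log2 fold change of -1.16 ± 0.089). Lrp1, an endocytic receptor that takes up midkine, fell from 579 ± 158 to 209.6 ± 11.1 CPM (edgeR adjusted p = 2.14e-05 at a log2 fold change of -1.47 ± 0.165). Its Hb libraries had 726, 412 and 600.5 CPM, with replicate 2 the lowest as for Hspg2. Hb replicate 2 was also the lowest Hb library for Agrn, Cspg4 and Ptprs, and the highest for Hdgf. Fgfr1 rose from 55.4 ± 3.66 to 126 ± 6.18 CPM (edgeR adjusted p = 3.56e-12 at a log2 fold change of 1.18 ± 0.077). The integrin subunit genes Itgav and Itga6 rose from 245.5 ± 15.5 to 457 ± 27.7 CPM and from 105 ± 6.07 to 196 ± 4.45 CPM.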

How the data were processed

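The deposited file of the authors holds raw counts per gene symbol for 9 libraries. Per the submitters' processing notes, the tools were HTSeq 0.10.0, HISAT2 2.1.0 and bcl2fastq 2.19.1.403, with build GRCm38. The sources used here do not state annotation release, strand setting or treatment of multi-mapped reads. Columns beginning with N were read as Hb+NTR1, because the authors' comparison of that group with control holds N and C columns. A deposited table of the authors gives log2 fold changes and p-values for selected genes; the sources used here do not name its test.

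Of 54232 entries, 98 exact repeats were removed. Genes were filtered (filterByExpr, minimum count 10) and scaled by TMM, and all 9 libraries entered 1 quasi-likelihood fit by group (edgeR 4.0.16, R 4.3.3), with two-sided tests, and p-values were adjusted (Benjamini-Hochberg) within each comparison and called under 0.05. SE is the absolute log2 fold change over the square root of F. CPM use the scaled library total. On simulated counts for Hb against control over 13810 genes, the fit called 16% of the 50 genes altered 1.25-fold. It called 72% of those altered 1.5-fold, 88% of those altered 2-fold and 98% of those altered 4-fold. Altered genes came from those with at least 10 expected counts in control, and all 3 groups otherwise had the control mean. The rates thus do not cover genes as sparse as Mdk, or changes as wide as those in Hb+NTR1.

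The 10 genes and the 9 pathway lists were chosen with earlier results of these data known. Named from each list were up to 4 called genes per direction and comparison with at least 5 CPM, of which some are given, and the 3 genes nearest in pattern to Prelp. Alternatives were DESeq2 size factors, 2 other filters, DESeq2 1.42.0, only the libraries compared, a replicate block, each library left out and, added after seeing the data, library totals alone.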

Additional observations from a re-analysis of the deposited data

How the results depend on the processing

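Of 30 log2 fold changes of the 10 genes, 27 kept their direction and their side of the threshold in each of the alternatives run, and Mdk could not be fitted with at least 1 CPM in 3 libraries. The exceptions were near 0. Dcn in Hb against control ran from -0.18 to 0.0685 as single libraries were left out. It was above 0 without control replicate 1 (0.0287) or 2 (0.0105) and without Hb replicate 1 (0.00616) or 3 (0.0685), and with library totals alone (0.00697). Hspg2 in Hb against control ran from -0.262 to 0.144, the latter without Hb replicate 2. Gpc1 in Hb+NTR1 against control passed the threshold with only the 6 libraries compared (0.119), without control replicate 3 (0.195) and with library totals alone (0.183). The cause was not tested. The number of the 10 that passed stayed at 6 in Hb against control and at 9 in Hb+NTR1 against Hb, and was 8 or 9 in Hb+NTR1 against control.

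The number of all genes called in Hb against control, 504, ran from 282 to 1134 as single libraries were left out, and that of the pathway genes, 11, from 7 to 15. With library totals alone 65.8% of the calls in that comparison were higher, against 51.4%. Of 111 log2 fold changes of the pathway genes that the rule picks, 102 passed in each alternative. Same-numbered libraries of different groups did not deviate together (correlations from -0.0488 to 0.0953), and not every library was closest to its own number. A replicate block gave 645 called genes in Hb against control and 12 called pathway genes, and the count for the 10 genes stayed at 6. Depth limits Mdk, with 2 to 14 counts per library, and Prelp and Dcn in Hb+NTR1.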
